A study of Rattus norvegicus with 9 samples.

Results

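Back skin of Sprague Dawley rats that had received imiquimod and epidural lidocaine was set against back skin of untreated rats, gene by gene, to see which genes stood near, beyond or short of the untreated level. Imiquimod, which activates Toll-like receptor 7 and causes inflammation resembling psoriasis, was applied to the back for 6 days. Lidocaine at 1% was injected epidurally for 4 days from day 3, and skin was taken on day 7. Each group had 3 samples from rats of 250 g, all labelled wild type, and a group with imiquimod alone (3 samples) served to order the genes, which makes 9 samples in all. No group with a vehicle or with a sham injection is labelled, so effects of a vehicle, of the injection and of lidocaine itself cannot be told apart. Whether the samples of a group came from separate animals is not labelled, and p-values then refer to the spread between the samples, which may be technical.

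No table of lidocaine against untreated skin was used. The comparison joins 1 table of 6025 gene IDs (imiquimod and untreated) with 1 of 399 gene IDs (imiquimod with lidocaine and imiquimod). The 227 gene IDs in both, of 6197 in either, were compared, which is 3.77% of the first table and 56.9% of the second. The other 172 gene IDs of the lidocaine table have no untreated level here. Every one of the 227 differed by at least 1.05 on the log2 scale between imiquimod and untreated skin and by at least 1.00 between imiquimod with lidocaine and imiquimod, so genes with smaller differences are missing. Values are the authors' normalized read counts, and differences are on the log2(normalized count + 1) scale, on which 1 is a doubling for all but low genes.

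Psoriasis-like inflammation joins an immune and an epidermal program. Cytokines such as interleukin 1 beta and interleukin 6 and chemokines draw leukocytes into the dermis, while keratinocytes leave the normal sequence in which keratins, involucrin and other cornified envelope precursors are made as cells move towards the surface. Sensory nerves in the skin release neuropeptides and signal to immune cells, and lidocaine blocks the voltage-gated sodium channels on which those nerves depend. In whole skin, fewer cells of a type and less RNA per cell cannot be told apart.

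Genes were placed by the log2 difference of their group means. A gene was called further from untreated skin where lidocaine moved it in the same direction as imiquimod. Otherwise it was near where imiquimod with lidocaine lay less than 1 from untreated, short where it lay 1 or more away on the imiquimod side, and beyond where it lay 1 or more away on the opposite side. By this rule 147 of 227 gene IDs (64.8%) were further, 47 (20.7%) near, 31 (13.7%) short and 2 (0.881%) beyond. Of the further genes, 55 were higher and 92 lower than in untreated skin. Both selecting differences contain the imiquimod libraries with opposite sign, and a further gene must differ from untreated by about 2 or more, so these counts describe the listed genes and carry no test. The edge of the near class was not a gap. Just inside lay Anks4b at -0.96 and RGD1305298 at 0.93, and just outside lay Trim80 at 1.00 and Acvr1c at -1.09.

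**Figure D1:**
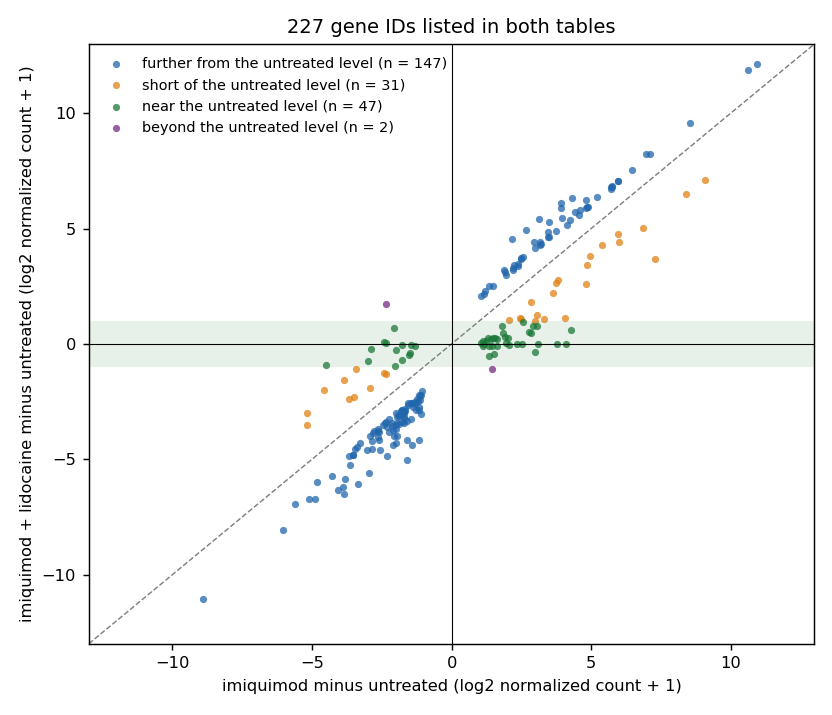
Each point is 1 of 227 gene IDs, with the imiquimod minus untreated difference on the x axis and the imiquimod with lidocaine minus untreated difference on the y axis, both in log2(normalized count + 1). The shaded band is less than 1 from untreated and the dashed line marks equal differences. Most points lie outside the band and further from 0 than the dashed line, with 47 inside the band.

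Between imiquimod with lidocaine and untreated skin, 167 of the 227 gene IDs passed an adjusted p of 0.05 in limma (73.6%), 68 of them higher (30.0%) and 99 lower (43.6%). The 3 libraries of one group did not overlap the 3 of the other for 171 gene IDs (75.3%). These shares are the background for the counts that follow. All 147 further genes passed, and none of them overlapped between the groups, both of which the selection largely fixes. Of the other genes, 19 short genes and 1 near gene passed. For comparison, limma called 87.8% of the 6025 rows of the imiquimod table and 32.1% of the 399 rows of the lidocaine table. Per library, 307944 to 455795 reads fell on these gene IDs. Cfb took 43.2 to 48.3% of these reads in lidocaine libraries, while Krt1 took 31.3 to 44.4% in untreated libraries.

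Chemokine genes stood further above untreated skin with lidocaine. Of 50 listed chemokine and receptor genes, 33 were in the imiquimod table, 7 in the lidocaine table and 6 in both, and all 6 were higher with lidocaine than in untreated skin, with a median difference of 7.51 against -0.23 over all 227 gene IDs. Their summed level was 34403 to 39537 normalized counts in lidocaine libraries, against 228 to 314 in untreated libraries. Ccl7, which attracts monocytes, had 19406, 17454 and 23676 normalized counts with lidocaine, against 249, 148 and 158 in untreated skin. The lowest lidocaine library was far above the highest untreated one, and the difference was 6.79 ± 0.29 (SE, n = 3 each; limma adjusted p = 5.28e-05).

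Ccl5, a chemokine of T cells and macrophages, had 4016, 3533 and 5659.9 normalized counts with lidocaine, against 28.8, 36.2 and 51.7 in untreated skin (difference 6.80 ± 0.32). Ccl12, in mice a further monocyte attractant, had 8706, 8691 and 6798 with lidocaine, against 9.21, 0 and 0 (11.85 ± 0.99; limma adjusted p = 0.000293). Xcl1, made by activated T and NK cells, had 843, 439 and 589 with lidocaine and 6.91, 0 and 0 in untreated skin. In these genes the groups were separated by an order of magnitude or more. Cxcl17, a mucosal chemokine, differed by 8.22 ± 0.52, with 2285, 2798 and 1179 normalized counts with lidocaine and 10.4, 3.10 and 5.07 in untreated skin. Cxcr3, the receptor carried by T cells of the interferon-gamma type, had 1454, 1489 and 1634 with lidocaine, against 10.4, 41.3 and 34.5 (5.89 ± 0.54). The libraries of the groups did not overlap in any of the 6 chemokine and receptor genes, as held for all 147 further genes.

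The inflammatory cytokine genes Il6 and Il1b were likewise above untreated skin with lidocaine. Of 40 listed inflammatory cytokine and feedback genes, 29 were in the imiquimod table, 5 in the lidocaine table and 4 in both. All 4 passed, all higher with lidocaine than in untreated skin (median 4.36, also with Il6 at its lower bound). Il6, Il1b and Ptx3 were further and Ereg, whose call was lost without most single libraries, was short. Il6, the acute-phase cytokine, had 473, 1252 and 731 normalized counts with lidocaine, against no read in any of the 3 untreated libraries. A count of 3 reads per library as the floor makes that at least 256-fold higher, and counting error is all this bound covers. Il1b had 5233, 5041 and 8911 with lidocaine, against 522, 293 and 265 in untreated skin (4.16 ± 0.39; limma adjusted p = 0.000381). Ptx3, a soluble pattern recognition protein of the innate response, had 3917, 1784 and 681 with lidocaine, against 88.7, 36.2 and 108. The lidocaine libraries of Ptx3 spread widely, though all 3 were above the untreated ones, and the difference was 4.56 ± 0.78.

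The promoters of Ccl7 and Il6 are shown because they hold letters of motifs of factors known to act at inflammatory genes. They are not typical of the listed chemokine, receptor, cytokine and feedback genes. A promoter was matched for 8 of the 10 in both tables, and of these 1 held AP-1 letters (Ccl7) and 1 held NF-kB letters (Il6). The windows run from 250 bases before to 50 bases after the RefSeq gene start, 5′ to 3′ on the strand of the gene.
Ccl7 (GRCr8 chr10:67513845-67514144, plus strand): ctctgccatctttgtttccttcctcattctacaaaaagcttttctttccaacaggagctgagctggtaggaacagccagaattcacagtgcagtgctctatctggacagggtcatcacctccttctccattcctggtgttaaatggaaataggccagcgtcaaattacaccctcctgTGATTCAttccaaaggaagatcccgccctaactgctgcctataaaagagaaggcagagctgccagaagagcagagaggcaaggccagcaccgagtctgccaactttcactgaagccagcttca
Il6 (GRCr8 chr4:5894526-5894825, minus strand): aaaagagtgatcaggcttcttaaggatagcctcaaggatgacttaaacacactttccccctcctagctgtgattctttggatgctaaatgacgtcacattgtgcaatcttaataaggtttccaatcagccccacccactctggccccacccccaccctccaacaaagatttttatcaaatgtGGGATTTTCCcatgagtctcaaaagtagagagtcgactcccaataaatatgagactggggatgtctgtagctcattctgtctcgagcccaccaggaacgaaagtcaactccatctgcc
The capitals mark TGANTCA (AP-1) in Ccl7, starting 73 bases before the start, and GGGNNTTTCC (NF-kB) in Il6, starting 68 bases before it. Both motifs were searched on both strands, with N any base, and the 2 motifs did not overlap in these windows. NF-kB letters were in 2 of 33 matched promoters of further genes above untreated skin (Il6 and Ltb, 6.06%) and in 2 of 59 of those below it (Clca5 and Cpvl, 3.39%), against 1.53% of all 33465 RefSeq promoters of the same length. AP-1 letters were in 3 of 33 (9.09%) and 6 of 59 (10.2%), against 7.33% of all promoters. A match describes letters and no binding.

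Leukocyte markers in both tables were spread over the classes, with the T and NK cell markers and the 1 macrophage marker further above untreated skin. Of 55 T and NK cell markers, 47 were in the imiquimod table, 4 in the lidocaine table and 3 in both (Cd6, Lag3 and Tbx21). All 3 were higher with lidocaine than in untreated skin, with a summed level of 2804 to 6136 normalized counts with lidocaine, against 48.4 to 78.5. Tbx21, the transcription factor T-bet, had 1242, 843 and 1607 normalized counts with lidocaine, against 12.7, 7.23 and 26.3 in untreated skin (6.35 ± 0.52; limma adjusted p = 0.000276). Lag3, an inhibitory receptor of activated T cells, differed by 5.94 ± 0.53 and Cd6, a T cell surface receptor, by 5.82 ± 0.39. Of 39 macrophage and monocyte markers, 33 were in the imiquimod table, 1 in the lidocaine table and 1 in both. This was Acod1, the itaconate-making enzyme of activated macrophages, with 2795, 4966 and 6257 normalized counts with lidocaine. Acod1 had no read in untreated skin and was at least 1461-fold higher with lidocaine. Mmp8, the neutrophil collagenase, had 320.1, 468 and 128 with lidocaine, against 0, 7.23 and 0 (7.06 ± 1.02). The other of the 2 neutrophil markers in both tables, Retnlg, was near (-0.07, not passing), and the eosinophil marker Ear1 was short. No library overlapped between the groups in Tbx21, Lag3, Cd6, Acod1 and Mmp8, as held for all 147 further genes. The T and NK cell markers and Acod1 lay above untreated skin, as the chemokines and cytokines did. The part of these cells in those differences was not tested.

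Further genes outside the cytokines included Cfb, a serine protease of the alternative complement pathway, which had the most reads of the 227 gene IDs in each lidocaine library. One of its gene IDs had 185068, 135334 and 167683 normalized counts with lidocaine, against 4046, 5408 and 4146 in untreated skin (5.17 ± 0.23; limma adjusted p = 5.28e-05). A second gene ID with the symbol Cfb differed by 3.38 ± 0.22, and how the authors treated reads shared by both IDs is unknown here. Lcn2, which withholds iron from bacteria, had 7995, 5430.0 and 17319.9 with lidocaine, against 789, 1115 and 1084 (3.21 ± 0.48). The lowest lidocaine library of Lcn2 was several times the highest untreated one. Rnase2, in humans an eosinophil ribonuclease, had 1335, 337 and 310.2 with lidocaine, against 18.4, 27.9 and 119.6 (3.67 ± 0.93; limma adjusted p = 0.0139). Has1, which makes hyaluronan, differed by 2.49 ± 0.41. Npy, a peptide of sympathetic nerves, had 303, 522 and 289 with lidocaine, against 63.3, 42.4 and 20.3 (3.20 ± 0.50), and it shares nearly identical values with a second gene ID. Among other genes chosen by rule, Ptprcap, which binds the lymphocyte phosphatase CD45, differed by 5.60 ± 0.34, and Tldc2 was at least 16.5-fold higher. Ms4a12, a membrane protein, differed by 7.56 ± 1.49, with 814, 1466 and 850 with lidocaine, against 0, 2.07 and 48.6. The untreated libraries of Ms4a12 spread widely, and its difference ran from 6.35 to 9.17 as single libraries were left out. Hbe1, an embryonic globin chain, was the 1 erythrocyte gene in both tables and was at least 13.7-fold higher.

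**Figure D2:**
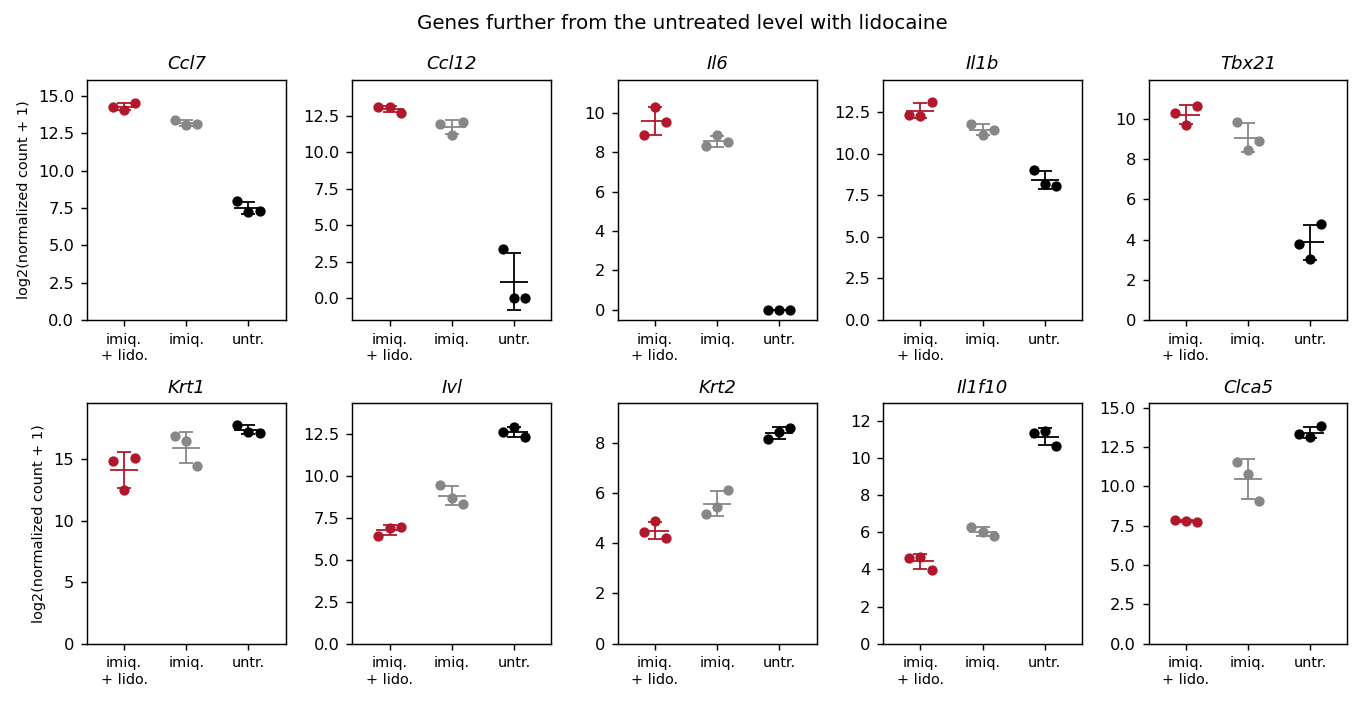
Each panel shows 1 gene, with the level in log2(normalized count + 1) on the y axis and imiquimod with lidocaine, imiquimod and untreated from left to right; points are libraries (3 per group), and bars are the mean ± SD. By group mean, Ccl7, Ccl12, Il6, Il1b and Tbx21 are highest with lidocaine and lowest in untreated skin, and Krt1, Ivl, Krt2, Il1f10 and Clca5 run the other way, while single imiquimod and lidocaine libraries overlap in Tbx21 and Krt1.

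Epidermal differentiation genes were split against untreated skin, with Krt1, Krt2 and Ivl further below it with lidocaine, Rptn above it and Dsc1 near it. Against imiquimod alone, all 5 genes were lower with lidocaine (Krt1 -1.81, Krt2 -1.07, Ivl -2.06, Rptn -1.59, Dsc1 -1.44). Rptn and Dsc1 were higher with imiquimod than in untreated skin, and the other genes lower. Of 56 listed genes of epidermal differentiation, 32 were in the imiquimod table, 8 in the lidocaine table and 5 in both, and 3 of the 5 passed as lower with lidocaine, 1 as higher and 1 did not pass. The median difference was -3.25. Ivl, the cornified envelope protein involucrin, had 84.5, 119 and 122 normalized counts with lidocaine, against 6296, 7728 and 5114 in untreated skin. That is 58.8 times lower in the mean, with a difference of -5.86 ± 0.27 (limma adjusted p = 5.28e-05). Krt2, a keratin of the upper epidermis, had 20.6, 28.3 and 17.4 with lidocaine, against 278, 346 and 385 (-3.88 ± 0.27).

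Krt1, the keratin that marks the start of differentiation, was the most abundant of these genes in untreated skin, and its level there matches the labelled tissue. It had 29531, 5703 and 35631 normalized counts with lidocaine, against 232847, 156576 and 141880.0. One lidocaine library was far below the other two, and the difference of -3.25 ± 0.77 (limma adjusted p = 0.011) became -2.42 without it. Small proline rich protein 4, a cornified envelope precursor listed as NEWGENE_2324572, had 43.2, 65.2 and 62.0 with lidocaine, against 7043, 5138 and 9792 in untreated skin (-6.96 ± 0.33). Lipm, a lipase of the outer epidermis, had 1473, 459.6 and 567, against 4967, 6033 and 6396 (-2.99 ± 0.49). These levels did not overlap between the groups in any of the 3 genes, as held for all 147 further genes. The other lower genes chosen by rule, RGD1562234 (annotated as similar to an S100 protein), Slc5a11, Ly6g6e and Micalcl, differed by -8.08, -6.50, -4.03 and -3.41.

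Cyp2b12, a cytochrome P450 of the sebaceous gland in rats, had the largest fall of the 227 gene IDs. It had 0, 4.29 and 6.20 normalized counts with lidocaine, against 7948, 5696 and 8259.6 in untreated skin, a difference of -11.06 ± 0.80 (limma adjusted p = 0.000191). It was the 1 of 42 sebaceous and fatty acid synthesis genes in both tables. Il1f10, the anti-inflammatory cytokine interleukin 38, had 23.6, 24.9 and 14.9 with lidocaine, against 2650.3, 2798 and 1598 (-6.72 ± 0.34). Il20ra, a receptor chain for interleukins 19, 20 and 24, had 32.4, 7.72 and 7.45, against 179.7, 113 and 255 (-3.69 ± 0.66). These 2, both below untreated skin, came from a list of 30 genes of the IL-23 and IL-17 axis and the IL-20 family. Of the 30, 24 were in the imiquimod table, 3 in the lidocaine table and these 2 in both. Il20ra is listed for the IL-20 family, and Il1f10, of the interleukin 1 family, belongs to the axis only by that list. No other gene of the list was compared with untreated skin here.

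Several genes of ion transport and the 2 claudins present in both tables were also below untreated skin, while other channel genes were near or above it. Clca5, of the calcium-activated chloride channel accessory family, had 237, 225 and 215 normalized counts with lidocaine, against 10129, 8909 and 14629 in untreated skin (-5.60 ± 0.25). Cldn8 and Cldn1, tight junction proteins, differed by -6.74 ± 0.49 and -2.65 ± 0.27. Cldn1, which seals the epidermis and was picked after its values were seen, had 4481, 2559 and 3770.0 with lidocaine, against 23219, 21568 and 21528. Trpv6, a calcium channel, had 80.5, 136 and 115 with lidocaine, against 5625, 5953 and 5569 (-5.71 ± 0.26), and Kcnk2, a potassium channel, differed by -4.85 ± 0.33. Scn8a, a voltage-gated sodium channel of the family that lidocaine blocks, had 11.8, 16.3 and 13.7 with lidocaine, against 91.0, 91.9 and 159. It was a low gene in this skin, and its difference was -2.91 ± 0.30 (limma adjusted p = 0.000519). Of the 44 listed channel genes 4 were in both tables, and Kcnk2 and Scn8a passed, both lower, while Ano1 and Clca2 did not pass. Outside that list, subunits of the GABA receptor channel, picked after their values were seen, were split. Gabrd had 181, 42.9 and 39.7 with lidocaine and no read in untreated skin, at least 27.4-fold higher. Gabra4 was lower, with 79.5, 57.4 and 41.0 with lidocaine, against 1064, 963 and 564 in untreated skin (-3.84 ± 0.38).

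Of 10 solute carrier genes in both tables, a family chosen after its values were seen, 6 passed as lower with lidocaine than in untreated skin, 1 as higher (Slc13a3) and 3 did not pass. Slc6a19, a transporter of neutral amino acids, had 192, 96.9 and 128 normalized counts with lidocaine, against 3231, 3875 and 2576 (-4.56 ± 0.33). Dio3, which inactivates thyroid hormone, differed by -6.00 ± 0.36. Genes of signalling and transcription in the epidermis and hair follicle were among the further genes too. Wnt3, a Wnt ligand, had 44.2, 93.5 and 50.9, against 2602, 2796 and 1719.8 (-5.26 ± 0.38), and Fgfr3, a fibroblast growth factor receptor, had 435, 335 and 266, against 2345, 1965 and 3202 (-2.85 ± 0.30). Pou2f3, a transcription factor of epidermal differentiation, had 276, 168 and 372, against 1365, 1075 and 1169 (-2.21 ± 0.35). None of these 3 overlapped between the groups, as held for all 147 further genes, and all 3 were chosen after their values were seen. Sfrp2, a secreted frizzled-related protein chosen in the same way, was further and higher. It had 4909, 3736 and 1768 with lidocaine, against 495, 161 and 636 in untreated skin (3.10 ± 0.67).

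The 47 genes near the untreated level comprised 33 with a higher mean and 14 with a lower mean in imiquimod than in untreated skin. Of these, 46 did not pass and 1, Anks4b, passed as lower, with 57.9, 67.7 and 79.4 normalized counts with lidocaine, against 103, 170.4 and 133 in untreated skin (-0.96 ± 0.27; limma adjusted p = 0.0216). The median SE was 0.55 and no 95% interval lay wholly within 1 of untreated, so the data do not show that these genes returned to the untreated level. Of the 47, 5 had no read in any of the 6 libraries and give no interval. On the log2 scale the median gene of this class kept 10.1% of its imiquimod difference (range -38 to 46.8%), against 60% in the short class (28 to 79.9%). The classes were cut on the same difference from untreated skin, which largely fixes this contrast.

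Desmosomal cadherins, the adhesion proteins of the epidermis, were split between classes (a family chosen after its values were seen). Dsc1, desmocollin of the upper epidermis, had 5367, 2198 and 1272 normalized counts with lidocaine and 4001, 10329.6 and 7313 with imiquimod, against 3045, 1744 and 3576 in untreated skin. The lidocaine and untreated libraries overlapped, with a difference of -0.11 and a 95% interval of -1.67 to 1.44. Dsg1, its partner desmoglein, had 31308, 11354 and 10923 with lidocaine, against 14135, 11398 and 15610.1 (0.21 ± 0.48). Dsg2, a desmoglein of the lower epidermis, was further and lower, with 357, 616 and 405 with lidocaine, against 3240.0, 3380.0 and 2854 (-2.82 ± 0.27). So 2 of the 3 lay near untreated skin with the groups overlapping, and 1 lay below it. Against imiquimod alone, all 3 were lower with lidocaine (Dsc1 -1.44, Dsg1 -1.21, Dsg2 -1.15).

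Among channel genes, Ano1, a calcium-activated chloride channel, had 381, 409 and 275 normalized counts with lidocaine, against 475, 379 and 184 in untreated skin (0.12, interval -0.94 to 1.19). Clca2 had 7463, 3310.5 and 3931, against 2856, 2551 and 2738. Its groups did not overlap, yet the difference of 0.76 (interval -0.14 to 1.66) did not pass at a limma adjusted p of 0.107 and became 0.41 without lidocaine replicate 1. Adrb3, a beta adrenoceptor, had 59.9, 41.2 and 102 with lidocaine and 7.84, 28.3 and 27.0 with imiquimod, against 65.7, 76.4 and 56.8 in untreated skin (-0.06, interval -1.02 to 0.90). Pomc, the precursor of melanocyte-stimulating hormone and endorphin, had 24.6, 30.9 and 63.3, against 55.3, 34.1 and 60.8 (-0.41, interval -1.53 to 0.72). Retnlg, a resistin-like protein of rodent neutrophils, differed by -0.07. All 3 had lower means with imiquimod alone than in untreated skin, and their lidocaine libraries overlapped the untreated ones.

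Ephx2, an epoxide hydrolase that breaks down signalling lipids, had 315, 279.5 and 112 normalized counts with lidocaine, against 776, 87.8 and 674 in untreated skin, an interval of -3.23 to 1.75. Leaving out the low untreated replicate 2 brought Ephx2 to -1.75 and Peg12, an imprinted gene, to -1.11, and both then passed. Kcna2, Xk, Itgb8, Sh3gl2, Zic4, RGD1310935 and Olr1747-ps, the other near genes chosen by rule, lay between -0.49 and 0.05, none passing.

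**Figure D3:**
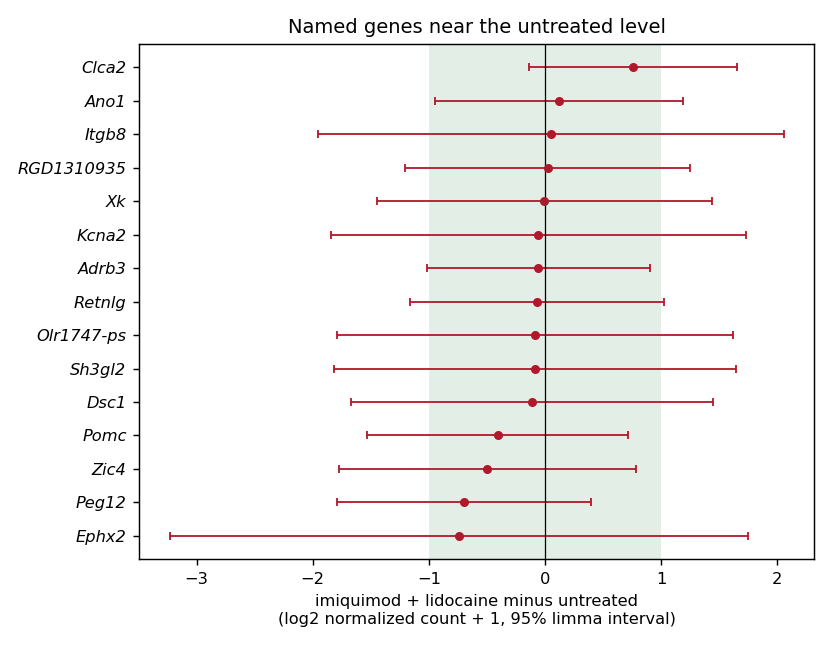
Points are the imiquimod with lidocaine minus untreated differences of the named near genes in log2(normalized count + 1), and bars are 95% limma intervals (n = 3 libraries per group). The shaded band is less than 1 from untreated, and every bar reaches out of it on at least 1 side.

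Genes that stood short of the untreated level on the high side numbered 21, of which 13 passed as higher with lidocaine than in untreated skin and 8 did not pass. The median difference was 2.65, or 2.59 with the 3 genes without an untreated read at their bound (range 1.00 to 7.09), and the groups of libraries did not overlap for 12. Proteins of the stressed epidermis were among them. Rptn, the cornified envelope precursor repetin, had 9483, 2043 and 1860.2 normalized counts with lidocaine and 9803, 11481 and 8699 with imiquimod, against 181, 145 and 142 in untreated skin (4.41 ± 0.69; limma adjusted p = 0.00236). One lidocaine library lay within the range of the imiquimod ones and the other two were several times lower, though all 3 were far above untreated skin.

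Tmprss11a, Tmprss11b and Tmprss11g, epithelial membrane-bound serine proteases, were all short. Tmprss11g had 659.9, 317 and 98.0 normalized counts with lidocaine, against 0, 7.23 and 0 in untreated skin (7.09 ± 1.13). Tmprss11b had 463, 145 and 62.0, against 4.61, 0 and 0 (6.51 ± 1.04), and Tmprss11a differed by 5.01 ± 0.99. In each of the 3, lidocaine replicate 1 was highest and replicate 3 lowest. The fourth family member in both tables, Tmprss11f, was further and lower, with 504, 97.7 and 144 with lidocaine, against 2249, 2051 and 1906 (-3.42 ± 0.64). The serpins, inhibitors of serine proteases, were also split against untreated skin. Serpinb2 was short, with 6582, 3156 and 4242, against 909, 412 and 771 (2.75 ± 0.44), while Serpinb13 and Serpina12 were further and lower, at -3.54 ± 0.65 and -4.00 ± 0.63. Against imiquimod alone, all 4 Tmprss11 genes were lower with lidocaine (Tmprss11a -1.83, Tmprss11b -1.90, Tmprss11g -1.98, Tmprss11f -1.73). So were the 3 serpins (Serpinb2 -1.05, Serpinb13 -1.54, Serpina12 -2.05). Both families were chosen after their values were seen.

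Ereg, a ligand of the epidermal growth factor receptor, had 687, 322 and 374 normalized counts with lidocaine and 591, 1293 and 978 with imiquimod, against 183, 52.7 and 199.6 in untreated skin. The difference of 1.80 ± 0.63 passed narrowly (limma adjusted p = 0.0456), and did not pass when any 1 library other than untreated replicate 3 was left out (adjusted p up to 0.135; 1.18 without untreated replicate 2). Gsdmc, a pore-forming protein, had 4119.7, 1430.2 and 1890.0 with lidocaine, against 419, 209.7 and 508 (2.65 ± 0.55). Ear1, in mice an eosinophil ribonuclease and the 1 of 25 mast cell and eosinophil markers in both tables, had 21.6, 26.6 and 11.2, against no read, at least 6.19-fold higher. Acmsd, an enzyme of tryptophan breakdown, was at least 8.74-fold higher. LOC100361866, annotated as eosinophil cationic protein-like, had 68.7, 51.4 and 67.0, against 10.4, 0 and 7.09 (3.80 ± 0.97), and lost its call without lidocaine replicate 1 (limma adjusted p = 0.0531).

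Promoters of the short genes above untreated skin are shown because more of the matched ones held AP-1 letters than in the other classes, a pattern picked after the windows were searched. These 3 genes hold it among those described above.
Rptn (GRCr8 chr2:181743213-181743512, plus strand): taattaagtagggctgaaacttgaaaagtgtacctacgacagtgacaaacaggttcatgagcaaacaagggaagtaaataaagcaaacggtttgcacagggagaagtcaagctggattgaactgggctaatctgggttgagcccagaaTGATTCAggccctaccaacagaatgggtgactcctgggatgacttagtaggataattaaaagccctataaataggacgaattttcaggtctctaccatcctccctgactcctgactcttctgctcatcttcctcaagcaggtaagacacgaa
Serpinb2 (GRCr8 chr13:24055771-24056070, plus strand): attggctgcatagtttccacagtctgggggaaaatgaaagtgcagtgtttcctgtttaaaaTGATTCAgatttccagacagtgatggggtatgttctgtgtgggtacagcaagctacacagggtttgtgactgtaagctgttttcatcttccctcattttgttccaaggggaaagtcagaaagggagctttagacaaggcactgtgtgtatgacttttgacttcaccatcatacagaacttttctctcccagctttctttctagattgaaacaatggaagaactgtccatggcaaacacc
Tmprss11b (GRCr8 chr14:21738510-21738809, plus strand): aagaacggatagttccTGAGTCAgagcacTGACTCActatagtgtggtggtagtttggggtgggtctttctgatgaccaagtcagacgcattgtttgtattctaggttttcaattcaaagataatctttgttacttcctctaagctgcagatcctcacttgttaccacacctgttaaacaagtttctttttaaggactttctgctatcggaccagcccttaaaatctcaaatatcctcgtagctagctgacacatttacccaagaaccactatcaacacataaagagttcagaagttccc
The capitals mark TGANTCA, a palindrome whose 2 strands give the same match, starting 102 bases before the start in Rptn, 189 in Serpinb2, and 234 and 221 in Tmprss11b. Of 9 matched promoters of this class, 4 held it (Rptn, Serpinb2, Tmprss11b and Lctl, 44.4%), against 1 of 13 among near genes higher with imiquimod (Clca2, 7.69%), 0 of 9 among short genes below untreated skin and 7.33% of all RefSeq promoters. The numbers are small and only 131 of 227 gene IDs had a promoter by symbol.

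Of the 10 genes short of the untreated level on the low side, 6 passed as lower with lidocaine and 4 did not pass, with a median difference of -1.95 (range -3.51 to -1.10). The groups of libraries did not overlap for any of the 10. Wnt6, a Wnt ligand of skin epithelium, had 57.9, 86.6 and 98.0 normalized counts with lidocaine and 50.5, 17.2 and 42.5 with imiquimod, against 331, 589.9 and 301 in untreated skin (-2.28 ± 0.37; limma adjusted p = 0.00256). Plppr3, a membrane protein known from neurons, had 19.6, 39.4 and 63.3, against 333, 852 and 279.7 (-3.51 ± 0.62). Wnt6 and Plppr3 thus stayed several times below untreated skin in every lidocaine library. Clec2l, a C-type lectin-like gene, differed by -1.89 ± 0.39 and Lrrc73 by -2.40 ± 0.46. Rhbdl1, a rhomboid-like protease, had 2.95, 7.72 and 32.3, against 99.1, 100.2 and 54.7 (-2.98 ± 0.84), and lost its call when lidocaine replicate 2 or untreated replicate 1 or 2 was left out. Mettl24, a methyltransferase-like gene, at -1.32 ± 0.50, did not pass (limma adjusted p = 0.0594), and passed at -0.78 without untreated replicate 3.

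**Figure D4:**
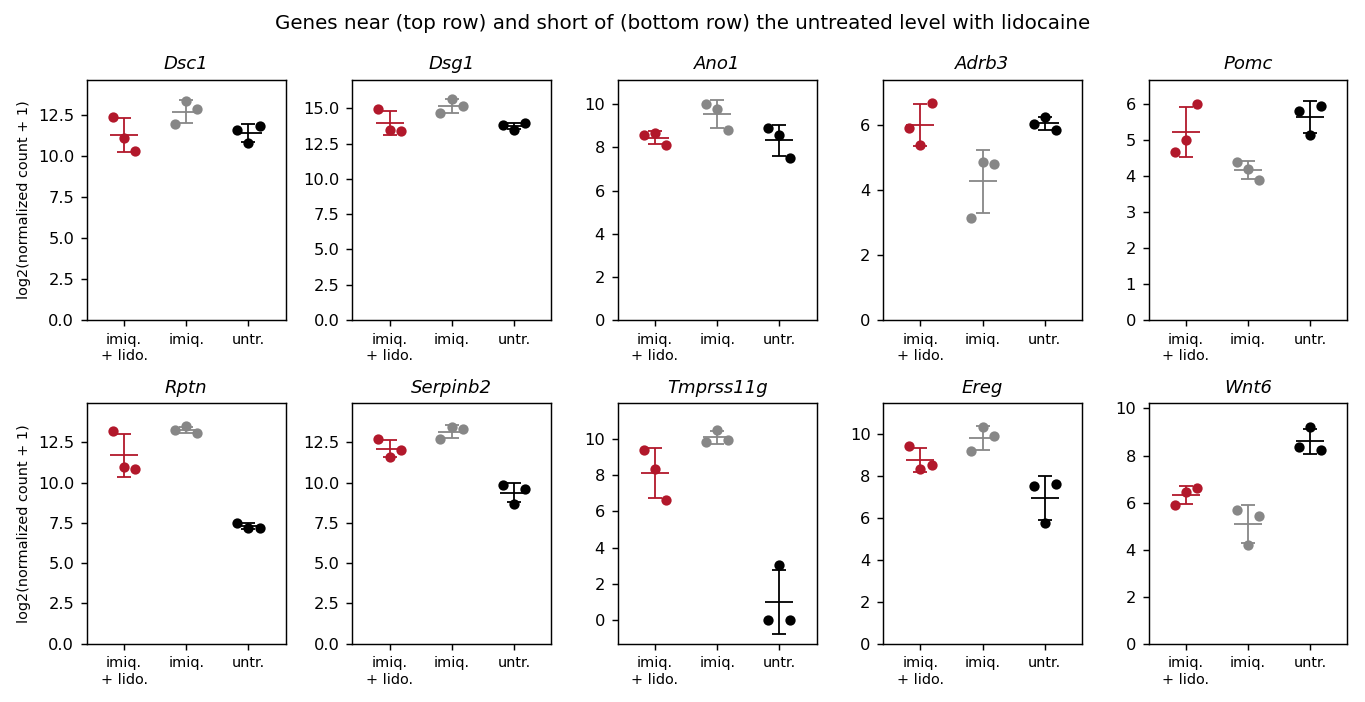
Each panel shows 1 gene, with the level in log2(normalized count + 1) on the y axis and imiquimod with lidocaine, imiquimod and untreated from left to right; points are libraries (3 per group), and bars are the mean ± SD. The upper genes (Dsc1, Dsg1, Ano1, Adrb3, Pomc) overlap between lidocaine and untreated, and the lower ones (Rptn, Serpinb2, Tmprss11g, Ereg, Wnt6) lie between the imiquimod and untreated means.

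Only 2 genes lay beyond the untreated level, both low and neither passing. Syce1, a central element protein of the meiotic synaptonemal complex, had 18, 18 and 12 reads with lidocaine, against 6, 15 and 0 in untreated skin (difference 1.74, interval -0.96 to 4.44). Acvr1c, an activin-family receptor, had 9, 20 and 0 reads with lidocaine, against 7, 12 and 13 (-1.09, interval -3.96 to 1.78). The libraries overlapped for both genes.

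The lidocaine libraries were not alike in the near and short genes with higher means in imiquimod than in untreated skin. Among the 33 such near genes, the median distance from the untreated mean was 0.82, 0.06 and -0.28 in lidocaine replicates 1, 2 and 3, and replicate 1 was the highest of the 3 in 20 genes, replicate 3 in 1. Among the 21 such short genes the medians were 3.53, 2.25 and 2.56, and 8 genes lay within 1 of the untreated mean in replicate 3, against 1 in each of the other two. Replicate 1 was the highest of the 3 in 15 of these 21 genes. Further genes had medians of 5.10, 4.91 and 5.59 above and -3.37, -3.77 and -3.71 below untreated skin in replicates 1, 2 and 3. Of the 55 above it, replicate 3 was the highest of the 3 in 31, replicate 1 in 15 and replicate 2 in 9, so the libraries differed here too, in another order.

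**Figure D5:**
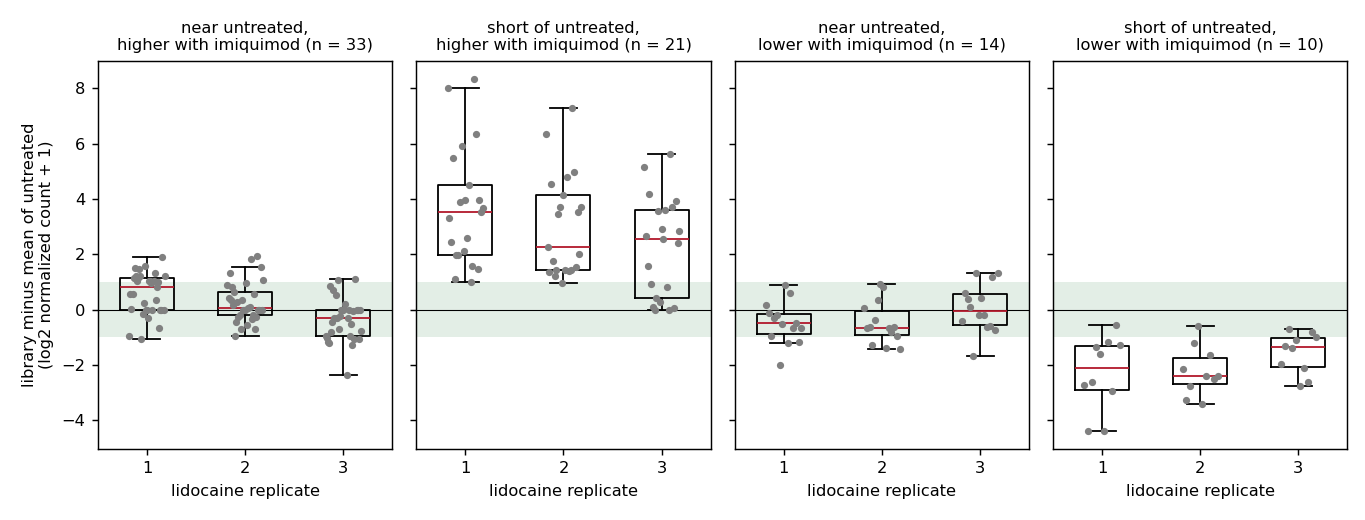
Each point is 1 gene of the class named over the panel, with the difference between 1 lidocaine library and the untreated mean on the y axis (log2(normalized count + 1)) and the lidocaine replicate on the x axis; boxes give the median and quartiles, whiskers reach 1.5 quartile ranges. In the near genes higher with imiquimod the medians are 0.82, 0.06 and -0.28 for replicates 1, 2 and 3.

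Several gene lists had no member in both tables. None of the 46 listed interferon-response and none of the 61 listed hair follicle genes in the imiquimod table is in the lidocaine table. Neither is any listed dendritic cell marker of 26, so no untreated comparison of these listed genes with lidocaine was made here. Outside the lists, LOC100912272, annotated as keratin-associated protein 26-1-like, was in both tables and further below untreated skin. It had 1.96, 0 and 1.24 normalized counts with lidocaine, against 114, 201 and 114 (-6.20 ± 0.50). In all, 36 genes of the 30 lists were in both tables, of which 22 passed as higher, 9 as lower and 5 did not pass, beside 68, 99 and 60 of all 227 gene IDs.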

How the data were processed

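RNA was sequenced from 9 rat back skin samples, 3 per group by sample title. TRIzol extraction of total RNA from frozen skin is given by the labels' protocols, and bcl2fastq, STAR 2.5.3a and DESeq2 by the submitters' processing notes. No source used here names the genome build, annotation, counting tool, strand setting or the rule that selected the listed genes. The authors deposited, per library, log2(normalized count + 1) for 6025 and for 399 genes. Both tables carry equal imiquimod values (they differ by at most 4.97e-09), so all 9 libraries share 1 scaling. After removal of the log, all values of at most 2000 reads were whole multiples of 1 read within 0.01, which gave reads; depth is known for listed genes only.

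Differences of group means over the 227 joined gene IDs were tested in limma 3.58.1 (R 4.3.3; lmFit and eBayes, 6 libraries, no block) with Benjamini-Hochberg adjustment over the 227 and a threshold of 0.05. The authors chose the rows on libraries that enter this comparison, so adjusted p-values are too small. The 1 added before the log shrinks differences of low genes. Differences are of mean log2 values, so they can also exceed the log2 of the ratio of means. Ms4a12, with a difference of 7.56 and a ratio of means of 61.7, is an example. Folds are ratios of mean normalized counts, or bounds against 3 reads per library where a group had no read; bounds cover counting error only. Python 3.11.15, numpy 2.4.6, pandas 2.3.3, scipy 1.17.1 and matplotlib 3.10.9 were used for tables and figures. A chi-square test over genes showed that replicates differed by far more than sampling noise. The fit was tested on simulated data.

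The gene lists (30, with 992 genes) and the members were chosen with earlier results of these data known. Named genes are all list members in both tables and, among genes with a symbol and a group mean of at least 50 normalized counts, per class and direction the 6 with the largest difference (for near genes the smallest) and per direction the 8 with the smallest adjusted p; any other gene named was picked with its values known. Promoters are from RefSeq (GRCr8). Ltb and LOC103694381, Npy and LOC100912228, RGD1565462 and LOC100909605, and 2 IDs of LOC102553715 have near-identical values and are uncertain, as are close family copies, since no source used here says how shared reads were handled.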

Additional observations from a re-analysis of the deposited data

How the results depend on the processing

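With p-values adjusted as if 6025 rows had been tested, an alternative added after seeing the data, 40 genes were called higher and 58 lower, so 98 of the 167 calls were kept. In the other settings run, the counts of calls stayed within 1.5 times of the reported ones: for example, keeping rows averaging 100 or more normalized counts left 147 gene IDs, with 46 higher and 82 lower, and a pseudocount of 0.1 gave 63 higher and 99 lower. Leaving out each library gave 64 to 69 genes called higher, 95 to 99 called lower, 43 to 52 near, 1 to 3 beyond, 26 to 36 short and 147 to 148 further. The same filter left 17 near and 13 short genes. The 2 genes beyond became 4 with a near width of 0.5, 1 with a width of 1.5, 0 with a pseudocount of 10, 1 at a mean of at least 10, 0 at a mean of at least 100 and 1 with medians of the libraries in place of means. The width moved the near count to 35 and 58 and the short count to 41 and 21, as its construction implies. Same-numbered samples did not deviate together (correlations 0.17, -0.04 and -0.12), so the numbers are not taken to pair them; a replicate block gave 66 higher and 96 lower, with 6 calls lost and 1 gained. Of 71 named genes, 55 were called and 20 lost the call in at least 1 setting, all but 4 of them (Rnase2, Ereg, LOC100361866 and Rhbdl1) only in the setting of 6025 rows; with the replicate block the limma adjusted p was 0.0501 for Rnase2 and 0.0576 for Rhbdl1. No called named gene changed direction in any setting run. Depth limits the low genes: 10 to 18 gene IDs had no read in lidocaine libraries and 33 to 39 in untreated ones, and for these rows a difference below the floor of 3 reads was not detectable.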

Other observations

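Other genes in both tables, chosen after their values were seen, included regulators of lymphocytes and immune recognition that stood further above untreated skin with lidocaine. Zbtb32, a zinc finger repressor in lymphocytes, had 721, 472 and 544 normalized counts with lidocaine, against 12.7, 13.4 and 3.04 in untreated skin (difference 5.94 ± 0.57; limma adjusted p = 0.000409). Sh2d1a, the adaptor protein SAP of T and NK cells, had 504, 270.1 and 298, against 48.4, 34.1 and 44.6 (3.01 ± 0.32), and RT1-CE6, a class I gene of the rat histocompatibility complex, differed by 3.44 ± 0.30. Sit1, a membrane adaptor of lymphocytes, differed by 3.70 ± 0.48. The libraries of the groups did not overlap in these 4 genes, as held for all 147 further genes.

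Lower than in untreated skin were Ret, a receptor for glial cell line-derived growth factors, with 219, 319 and 122 normalized counts with lidocaine, against 2336, 1914 and 4065 (-3.68 ± 0.48), and Tnfrsf19, a TNF receptor family member, with 33.4, 91.7 and 63.3, against 1525, 1197 and 1264 (-4.49 ± 0.41). Adh1, an alcohol dehydrogenase that oxidises retinol, differed by -3.12 ± 0.50, and Hsd17b2, which inactivates sex steroids, by -5.03 ± 1.22. Skint8, of a rodent family of epidermal membrane proteins, had 80.5, 30.9 and 44.7, against 449, 337 and 451 (-3.06 ± 0.40).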
